A study of Mus musculus with 2 samples.

Results

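The stretch of mouse chromosome 4 that lies 5 to 200 kb upstream of Jun was described as it was seen from the Jun promoter in untreated macrophages. Its members were the DpnII fragment ends with 1 copy in the genome whose position fell between 94726073 and 94921072 in mm9, 5 to 200 kb on the higher-coordinate side of the viewpoint at position 94721073. There were 766 such ends on 421 fragments, out of 921359 ends with 1 copy in both deposited profiles. The rule reads positions and copy number only, but the stretch was picked with earlier results of these data known.

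The profile was made by 4C-seq (circular chromosome conformation capture, read out by sequencing), in which cross-linked chromatin is cut and ligated and everything joined to a chosen viewpoint is amplified and read. The cells were primary bone marrow-derived macrophages of C57BL/6 mice, grown in medium conditioned by L929 cells and labelled as day 7 of differentiation. Libraries were read from the transcription start of Jun (1 library) and from that of Ccl2 (1 library), and neither culture was treated. The sources used here give neither the age nor the number of the mice, and contact data offer no marker transcript against which the cell type could be checked. With 1 library per viewpoint there is no replicate check, so the values describe single libraries, and no p-value could be computed. The intervals printed are exact (Clopper-Pearson) 95% binomial intervals over ends and cover counting error only.

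As background, Jun encodes a basic leucine zipper protein that joins Fos or other partners to form AP-1, a transcription factor of growth and stress responses and of macrophage activation. Promoters of such inducible genes are often reached by distant enhancers through folding of the chromatin fibre, mostly within a domain whose borders limit contact. A fragment close to a promoter is also ligated to it by chance of proximity, so contact usually falls steeply with distance. Jun is transcribed towards lower coordinates, which puts the flank on its upstream side. In the gene order of GRCm38.p6, 7 annotated genes stand between Jun and Fggy, the next protein-coding gene upstream, which encodes a carbohydrate kinase. They are the long non-coding RNA genes Junos, Gm12708, Gm32240, Gm830, Gm12707 and Gm40206 and the small nuclear RNA gene Gm25004. Junos is the neighbour of Jun. Which of the 7 lie inside the flank was not analysed here, because that annotation is of another build than the profile.

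The library was read from the start of Jun, and the 250 bases before that start in RefSeq are shown for orientation. They lie at chr4:95052223-95052472 of GRCm38.p6, on the minus strand, and that position must not be set against the mm9 positions of the profile. Capitals mark TGACATCA, the AP-1-type element through which Jun is known to act on its own promoter, and CCAAT, the core of a CCAAT box.

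Jun promoter: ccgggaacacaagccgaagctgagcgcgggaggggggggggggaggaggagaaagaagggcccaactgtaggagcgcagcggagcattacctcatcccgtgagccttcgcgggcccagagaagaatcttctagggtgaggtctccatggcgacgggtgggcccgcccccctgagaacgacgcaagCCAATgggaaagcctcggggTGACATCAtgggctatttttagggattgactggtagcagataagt

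The 8-base element begins 45 bases and the CCAAT 65 bases before the start. Searched on both strands in the same 250 bases of 27025 mouse genes, TGACATCA was found in 3.02% and CCAAT in 34.5%. The AP-1 consensus TGACTCA, found in 4.43%, was not among the letters of this window. Nor was the DpnII site GATC (found in 42.0%) or the Csp6I site GTAC (in 31.4%). The fragment taken as the viewpoint was 138 bp long. The 250 bases hold no DpnII site, so they are not that fragment. It was picked only as the fragment with the strongest end, so whether the reads were joined to the bases shown was not tested.

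The Jun library held 1652054 reads on unique ends of chromosome 4, of which 33.5% lay within 5 kb of the viewpoint and were left out. The Ccl2 library held 1248937 on chromosome 11, with 27.8% left out. Beyond 5 kb, 1098887 reads remained for Jun and 901507 for Ccl2. The protocol in the labels mentions no molecular identifiers, so several reads may be PCR copies of the same ligated molecule.

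The near upstream flank was contacted almost without a break. A read was found at 744 of its 766 ends (97.1%, 95.7 to 98.2%), and these ends carried 373713 reads. That is 34.0% of the Jun reads beyond 5 kb, on 0.154% of the unique ends there. The mean was 488 reads per end with an SD over ends of 591, the median was 254 and the quartiles were 71.0 and 698. At least 100 reads lay on 528 ends and at least 1000 on 120 ends. The signal did not rest on a few ends: the 10 strongest held 8.01% of the reads and the 77 strongest held 38.8%.

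**Figure D1:**
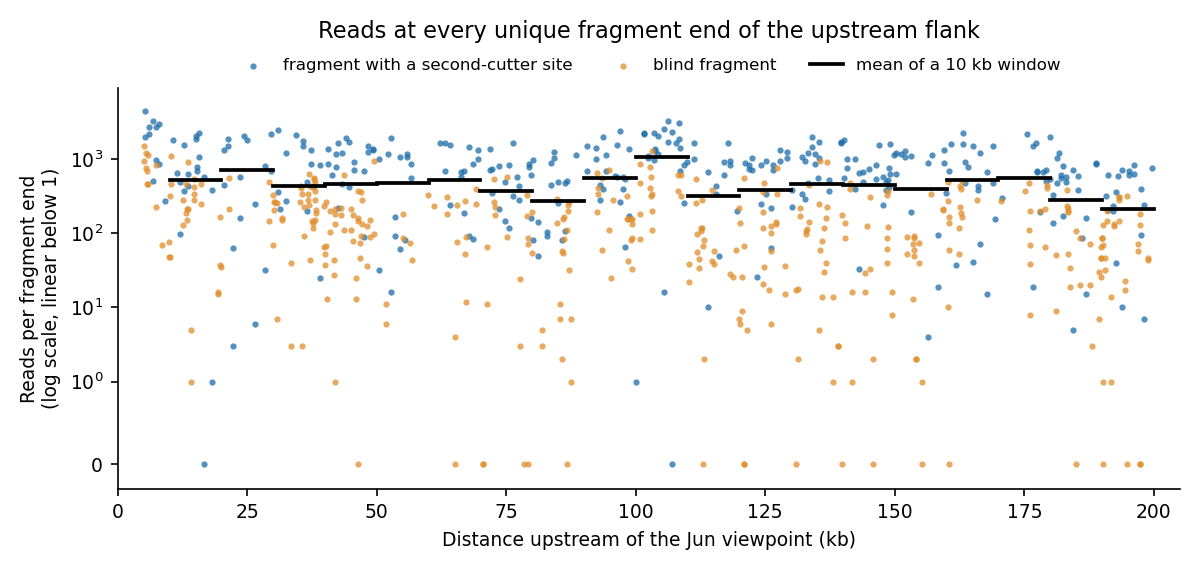
Each point is 1 unique fragment end of the flank, with its distance from the Jun viewpoint in kb on the x axis and its reads on a log y axis that is linear below 1; black bars are means of 10 kb windows. Points of fragments with a second-cutter site lie mostly above those of blind fragments, which have none, and the means stay between 215 and 1068 reads per end from 10 to 200 kb.

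Contact fell little with distance across the flank. The mean was 804 reads per end at 5 to 20 kb, 492 at 20 to 50 kb and 432 at 50 to 100 kb. It was 533 at 100 to 150 kb and 367 at 150 to 200 kb. The share of ends with a read in these classes lay between 96.2% and 99.2%. Over the 19 windows of 10 kb from 10 to 200 kb, the decay exponent was -0.17 (the slope of a line through log10 reads per end against log10 distance). At an exponent of 0 contact would not change with distance. The fall was steeper on either side of the high window at 100 to 110 kb, with -0.22 over the 9 windows from 10 to 100 kb and -0.39 over the 9 from 110 to 200 kb. Of the flank's reads, 49.0% lay beyond 100 kb, where 52.3% of its ends were.

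Levels fell at the inner edge. The window of 5 kb nearest to the viewpoint, at 94726073 to 94731072, held 1303 ± 1182 reads per end (SD over 24 ends), and the next, at 94731073 to 94736072, held 464 ± 441 (26 ends). At the inner limit itself the levels were continuous: the 2 ends of the fragment at 4.96 kb, left out, had 1329 and 2088 reads, and those of the fragment at 5.09 kb, the first member, had 1487 and 943. The outermost member, at 199.7 kb, had 764 reads, and the nearest unique end beyond the limit, at 202.4 kb, had 538. From 10 kb outward, 17 of the 19 windows of 10 kb lay within a factor of 2 of their median of 461 reads per end.

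The 5 windows of 10 kb with most reads per end were spread over the whole flank. The highest was 94821073 to 94831072, 100 to 110 kb from the viewpoint, with 1068 ± 880 reads per end (SD over 41 ends). The window at 94741073 to 94751072 (20 to 30 kb) had 707 ± 728 on 22 ends. The windows at 94891073 to 94901072 (170 to 180 kb) and 94811073 to 94821072 (90 to 100 kb) had 555 ± 601 and 554 ± 566, and that at 94781073 to 94791072 (60 to 70 kb) had 530 ± 545. The 5 means differed by less than the SD over ends. That SD describes the scatter of single ends and does not measure the uncertainty of a window mean. No order can be read among the 4 that follow the first.

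The 3 lowest windows were at 94911073 to 94921072 (190 to 200 kb), with 215 ± 236 reads per end, at 94801073 to 94811072 (80 to 90 kb), with 268 ± 349, and at 94901073 to 94911072 (180 to 190 kb), with 279 ± 323. Low windows were still covered: 45 of 49, 36 of 37 and 42 of 43 ends had a read. The windows at 80 to 90 and 180 to 190 kb were thus low in reads per end and not in the share of ends reached. That at 190 to 200 kb was also lower in coverage, with 91.8% against 97.1% in the whole flank. In windows of 5 kb, reads per end were 392 at 80 to 85 kb and 193 at 85 to 90 kb, where 28.6% and 69.6% of ends were on blind fragments, those with no site of the second cutter. Within fragments that were not blind the levels were 506 and 435, and within blind ones 108 and 87.2.

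The window at 100 to 110 kb stood apart from its neighbours. It held 43780 reads, 11.7% of those of the flank, and only 1 of its 41 ends lacked a read. Its mean was 2.32 times the median window of the flank and 2.51 times the median of the other windows within 50 kb. It was the only window of the 19 that reached 2 times its neighbourhood, where 14.1% of 191 windows on both sides of Jun from 10 to 1000 kb did so (27 windows, 4 of them among the 99 on the higher side). Of the 27, 23 were thus on the lower side. That side held few reads farther out, with 3.48 reads per end and 9.25% of ends covered at 200 to 300 kb. By the rule used, a window with a read was called wherever the median of its neighbourhood held none. The share over both sides can therefore be raised by windows with few reads. The share in the flank was 5.26%, below that of both sides together and close to the 4.04% of the higher side. The windows on either side of it had 554 reads per end (90 to 100 kb) and 315 (110 to 120 kb).

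The raised level was carried by many ends. In the window, 18 ends (43.9%) had at least 1000 reads, against 13.1% of the other 701 ends from 10 to 200 kb. Without its 3 strongest ends the window stood at 1.99 times the median window, and by the median of its ends, 857 reads, at 3.79 times. The 3′ ends alone had 1129 reads per end and the 5′ ends 1015, which are 2.68 and 2.36 times the same ends of the rest of the flank. The share of ends with a read did not set it apart, since nearly all ends of the flank had one.

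**Figure D2:**
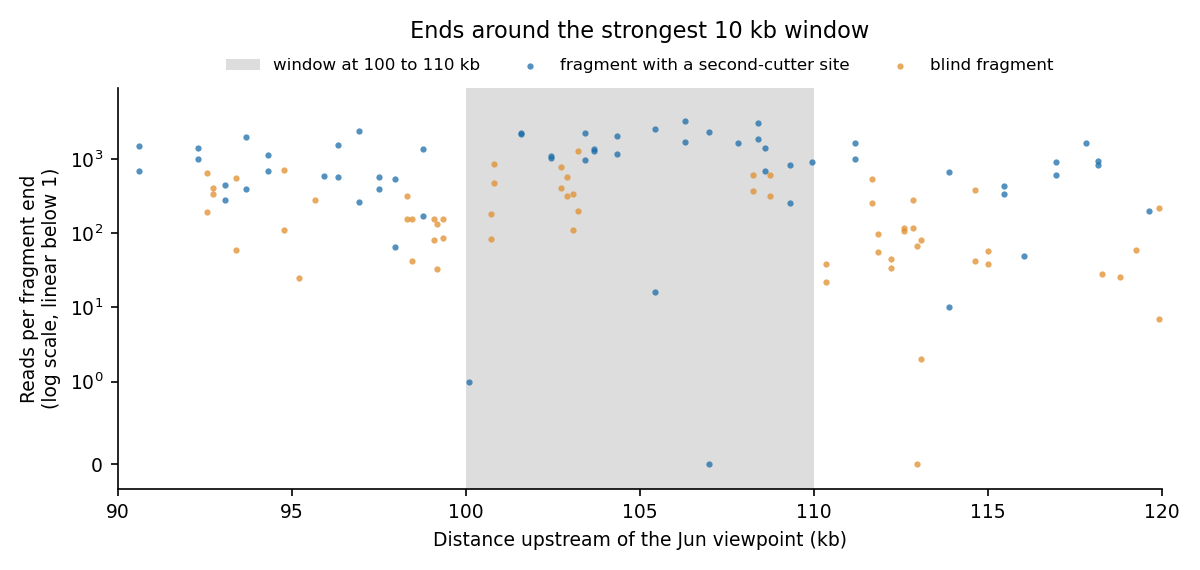
Reads at each unique end (log y axis, linear below 1) against distance from the viewpoint, from 90 to 120 kb; the grey band is the window at 100 to 110 kb. In the band most ends of fragments with a second-cutter site have 684 reads or more and those of blind fragments at 83 to 1274, while blind ends at 110 to 120 kb have a mean of 109.

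In steps of 1 kb the levels were raised without a gap from 101 to 110 kb, but its limits were not clear. Mean reads per end were 107 from 99 to 100 kb (6 ends) and 320 from 100 to 101 kb (5 ends). From 101 to 109 kb each step lay between 703 and 2209, with 1 to 8 ends each. The step from 109 to 110 kb had 663 on 3 ends and that from 110 to 111 kb had 30.0 on 2 ends. The low steps at 99 to 100 and 110 to 111 kb held 0 ends on fragments with a second-cutter site, and that at 100 to 101 kb held 1. Means over all ends therefore mix level with fragment class at these steps. Blind ends had a mean of 468 in the window at 100 to 110 kb and 161 in the rest of the flank from 10 kb outward. The blind ends at 99 to 100 and 110 to 111 kb had 107 and 30.0. How far fragment class accounts for the low steps was not tested. Single steps outside were also high, with 1197 at 96 to 97 kb (4 ends) and 1621 at 117 to 118 kb (1 end). Steps of this size hold few ends, so the limits are approximate.

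Of the 10 strongest single ends of the flank, 5 lay within 10 kb of the viewpoint and 3 in this window. The strongest, at 94726385 (5.31 kb), had 4480 reads. The second, at 94827377 (106.3 kb), had 3295 reads, and its partner at the other end of the same fragment of 614 bp had 1713. Ends at 94829473 (108.4 kb) and 94826497 (105.4 kb) had 3096 and 2571 reads, and their partners 1841 and 16. The other 4 within 10 kb, at 94727857, 94728993, 94728529 and 94727185, had 3250, 3003, 2701 and 2688 reads. The remaining 2 were at 94752081 (31.0 kb, 2447 reads) and 94818001 (96.9 kb, 2419 reads). All 10 lay on fragments with a second-cutter site, as did the 50 strongest, of which 11 were in the window at 100 to 110 kb and 7 within 10 kb.

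The structure of the restriction fragments moved with the reads. A blind fragment is one with no site of the second cutter, so that its ligation products can be trimmed only at a site beyond it. The 351 ends on fragments with a site had 842 ± 688 reads (SD over ends, median 697), and the 415 ends on blind fragments had 188 ± 223 (median 116). The ratio of the means was 4.47, and the first class was higher in each of the 19 windows of 10 kb. It held 79.1% of the flank's reads on 349 covered ends of 351. Of the blind ends, 95.2% had a read (92.7 to 97.0%).

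Reads also fell with the length from an end inward to the next second-cutter site. Across the 766 ends Spearman's rho between that length and reads was -0.72, a description within 1 library whose ends share neighbours, fragments and base composition. It was -0.37 within the fragments with a site and -0.57 within blind fragments. Reads per end had a median of 672 for lengths under 100 bp (122 ends), 795 from 100 to 300 bp (217 ends) and 199 from 300 to 600 bp (204 ends). From 600 to 1000 bp the median was 41.0 (119 ends), and from 1000 bp upward it was 33.0 (104 ends). The 5′ end was paired with the length counted from the lower edge of the fragment and the 3′ end with that from the higher edge, a choice made after the values were seen. Paired the other way, as the header names would have it, rho was -0.38. Distance from the viewpoint had a rho of -0.16 on fragments with a site and -0.26 on blind ones.

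**Figure D3:**
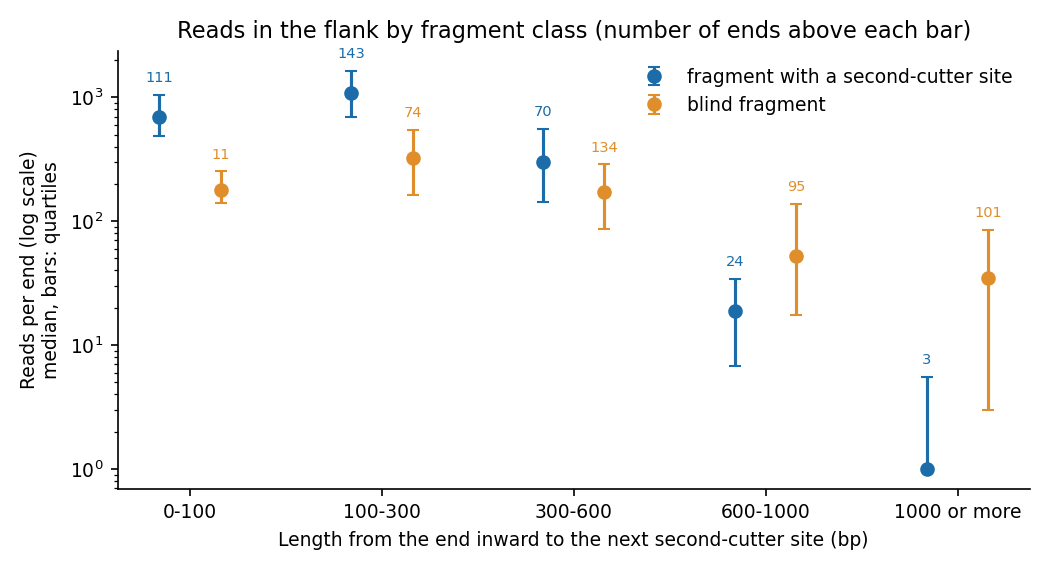
Median reads per end on a log y axis, with quartiles as bars, for ends of the flank grouped by the length in bp to the next second-cutter site, for fragments with such a site and blind fragments; numbers give the ends in each group. Medians are highest from 100 to 300 bp in both classes (1080 and 322) and fall to 19 and 52 from 600 to 1000 bp.

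These properties moved with the strongest window too. In the window at 100 to 110 kb 39.02% of ends were on blind fragments and the median length to the second cutter was 232 bp, against 55.1% and 360 bp in the rest of the flank from 10 kb outward. Within classes it was still raised: ends on fragments with a site had 1451 ± 916 reads (25 ends) against 750 ± 563 in the rest, a ratio of 1.93, and blind ends had 468 ± 310 (16 ends) against 161 ± 179, a ratio of 2.90. It ranked first of the 19 windows in both classes. With the reads of each window divided by those expected from the fragment class and length of its ends, it stood at 1.88 times the median window and 1.98 times its neighbourhood, so that it remained highest but fell just short of 2 times. With ends on fragments with a site alone it was highest too, and 0 windows reached 2 times their neighbourhood. Windows moved by 5 kb split it and also took in the stretch from 5 to 10 kb. The highest was then that at 5 to 15 kb, at 1.89 times the median window, and from 15 kb outward that at 105 to 115 kb, at 1.53 times.

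The same division changed other windows. The window at 20 to 30 kb, second in reads per end, was 1.53 times the median before and 1.25 times after, close to those at 10 to 20 kb (1.30), 30 to 40 kb (1.29) and 40 to 50 kb (1.27). The 4 windows from 10 to 50 kb thus formed an even inner part. The lowest windows stayed low, at 0.54 (190 to 200 kb), 0.70 (80 to 90 kb) and 0.74 (180 to 190 kb). The range from the lowest to the highest window narrowed from 4.96-fold to 3.44-fold, and the exponent was -0.18.

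**Figure D4:**
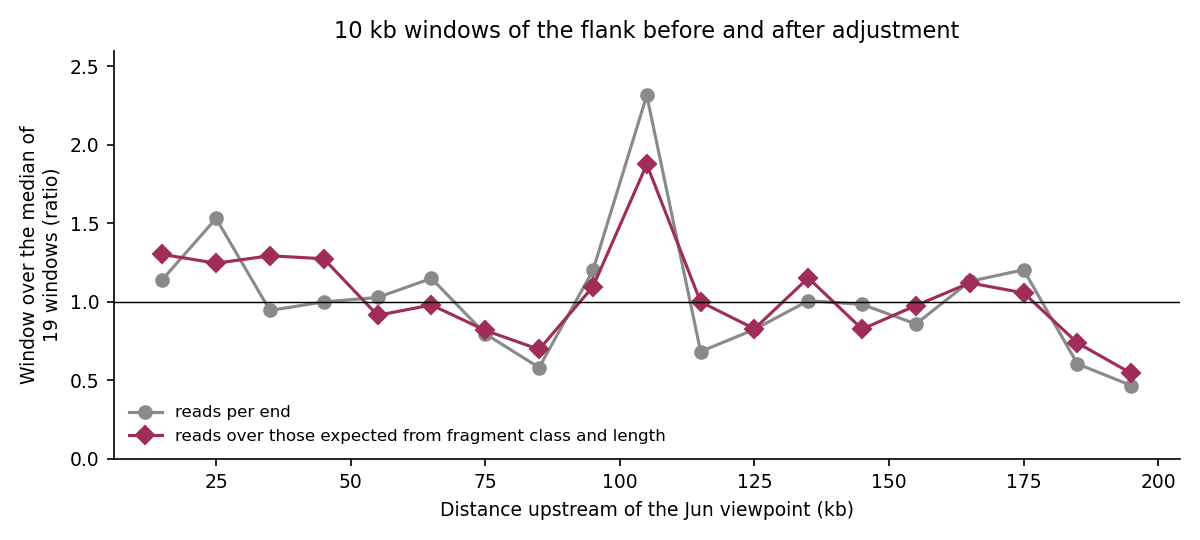
Each of the 19 windows of 10 kb from 10 to 200 kb as a ratio to their median, by reads per end (grey) and by reads over those expected from fragment class and length to the second cutter (purple), against distance in kb. The window at 100 to 110 kb is highest on both scales, at 2.32 and 1.88, and the window at 20 to 30 kb falls from 1.53 to 1.25.

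Contact was higher on the upstream side of Jun than at the same distances downstream. From 5 to 200 kb on the lower side, 347 of 633 ends had a read (54.8%, 50.8 to 58.7%), with 97.5 ± 202 reads per end (SD) and a median of 9. Reads per end were thus 5.0 times as high upstream, and 85.8% of the reads of both stretches lay there. The flank also had more unique ends per kb, 3.93 against 3.25. Within fragments with a second-cutter site the ratio of reads per end was 5.49, and within blind fragments it was 6.31.

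The sides parted with distance. In windows of 10 kb the upstream level was 1.97 to 3.47 times the downstream level from 10 to 50 kb, 4.27 to 4.68 times from 50 to 90 kb, and 19.3 times at 90 to 100 kb. At 100 to 110 kb it was 35.3 times, with 1068 reads per end upstream and 30.2 downstream, and from 110 to 160 kb it was 10.4 to 31.2 times. The downstream level fell to 0.100 reads per end at 160 to 170 kb, where a single read lay on 10 ends, and the upstream level there was 521. Of the 19 windows of the flank, 18 had at least 2 times the reads per end of their mirror, all but that at 40 to 50 kb. Over all distances from 10 to 2000 kb, 71.6% of 183 windows did so, so this one-sidedness extended beyond the flank.

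Coverage showed the same order. From 10 to 100 kb, 97.7% of upstream ends had a read (95.4 to 98.98%) and 80.1% of downstream ends (75.3 to 84.3%). At 150 to 200 kb upstream ends had 96.2% (92.4 to 98.5%) and downstream ends 9.03% (4.89 to 14.9%). The intervals did not overlap in either class, but they treat ends as independent, although ends share fragments and neighbours. Their separation therefore describes this library only and is not a test of a difference between the sides. Downstream, 8.08% of the reads from 5 to 200 kb lay beyond 100 kb, and the exponent over its 19 windows was -1.97.

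**Figure D5:**
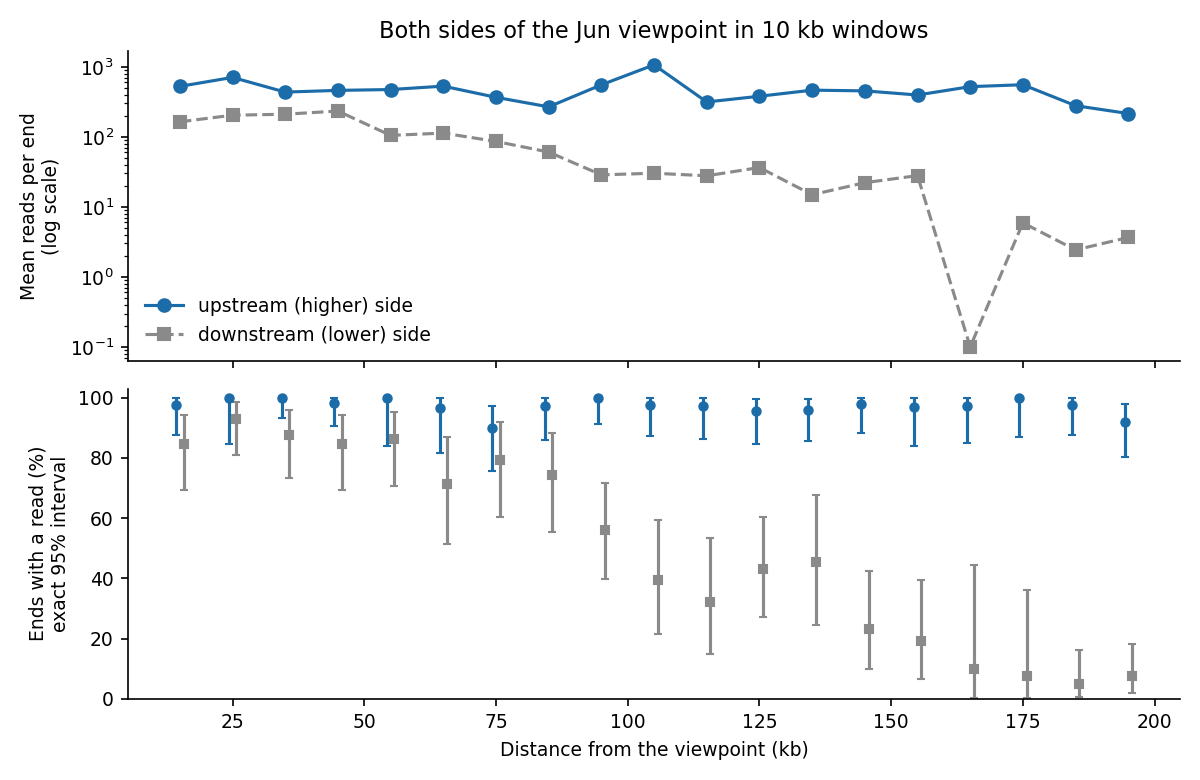
Mean reads per unique end on a log y axis (top) and the percentage of ends with a read with its exact 95% interval (bottom) in 10 kb windows against distance from the Jun viewpoint in kb, for the upstream side (blue circles) and the downstream side (grey squares). Upstream coverage stays at 89.7% or more in every window, while downstream coverage is lowest at 180 to 190 kb, with 4.76%, and is 7.55% at 190 to 200 kb.

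Farther out on the same side the level was lower. From 200 to 500 kb the mean was 166 ± 211 reads per end (SD over 1099 ends), so the flank stood 2.94 times higher, and 89.7% of ends had a read (87.8 to 91.5%). Within fragment classes the ratios were 3.003 and 3.05. The step was gradual: reads per end were 367 at 150 to 200 kb, then 208 at 200 to 300 kb, 153 at 300 to 400 kb, and 138 at 400 to 500 kb. The last windows of the flank, at 180 to 190 and 190 to 200 kb, had 279 and 215.

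On the upstream side of Ccl2, the other promoter profiled, contact fell more steeply. Ccl2, which encodes a chemokine that attracts monocytes, is transcribed towards higher coordinates, so its upstream side is the lower one. From 5 to 200 kb there, 424 of 836 ends had a read (50.7%, 47.3 to 54.2%), and the median was 1 read per end. With both libraries scaled to the same number of reads beyond 5 kb, the mean per end in the Jun flank was 1.53 times that of Ccl2. The exponent over 19 windows was -2.07 for Ccl2, and 4.46% of its reads in this range lay beyond 100 kb. The 10 strongest ends held 24.3% of the reads, against 8.01% in the Jun flank. The downstream side of Ccl2 was covered more fully than its upstream side. From 5 to 200 kb there, 618 of 820 ends had a read (75.4%), the median was 45.5 and the 10 strongest ends held 15.5% of the reads. The difference between the viewpoints cannot be told apart from a difference between their libraries.

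Ends without a read were few and scattered. There were 22 on 19 fragments, 8 of them within 100 kb and 14 beyond, and 20 were on blind fragments. Fragments shorter than 50 bp held 13 of them and fragments of 500 bp or more held 8. Ends on fragments shorter than 50 bp were covered in 81.2% of cases (69.9 to 89.6%, 69 ends), and those on fragments of 200 to 500 bp in 226 of 226. No run of consecutive unique ends without a read was longer than 2, and the 3 runs of that length were each the 2 ends of 1 blind fragment. They lay at 94791585 (70.5 kb, 1028 bp), 94841905 (120.8 kb, 27 bp) and 94918465 (197.4 kb, 35 bp). Of the 21 ends without a read whose partner end was also unique, 15 had a partner with reads, up to 2340 at 94828065 in the window at 100 to 110 kb.

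The ends of 1 fragment often differed. Of 345 fragments with both ends unique, 154 (44.6%) had values within a factor of 2 of each other, computed on reads plus 1, and 46 differed by more than 10-fold. Spearman's rho between the ends was 0.56 over all 345, 0.53 on blind fragments (194) and 0.21 on fragments with a second-cutter site (151). Neither end was favoured, with 486 reads per 3′ end and 490 per 5′ end. Single ends therefore say little about contact at 1 fragment. The windows of 10 kb held 21 to 57 ends each, and those of 5 kb held 2 to 38.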

How the data were processed

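Per the submitters' processing notes the genome build is mm9; the sources used here do not say how reads were aligned or counted. The deposited values are estimated counts of reads per fragment end, not scaled to depth, a reading that rests on the values (75.0% of the flank's 48 values up to 10 lie within 0.1 of a whole number). They were rounded to whole reads. Per the labels' protocols, DpnII was the first cutter and Csp6I, spelled otherwise there, the second. Columns were read 1 place to the left of their header names, which an empty header cell shifts. Per the file headers, other columns give each end's multiplicity and lengths in bp. A fragment was called blind where the length to the second cutter exceeded its own. The second-cutter lengths changed by the fragment length between neighbours in 270 of 270 and 269 of 269 blind cases. The fragment with the strongest end was taken as the viewpoint.

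Windows, exponents, mirror and neighbourhood ratios (called at 2 times) were computed in Python 3.11.15 with numpy 2.4.6 and pandas 2.3.3, intervals with scipy 1.17.1. The window code was run on simulated reads that were flat with distance within each fragment class, apart from raised windows. They had no dependence on length to the second cutter and no relation between ends, unlike these data. The run therefore bears on the code only and lends no support to the values. By rule, the 5 highest and 3 lowest windows, the 10 strongest ends and the 3 longest runs without a read are named. Members, rule and lists were chosen with earlier results of these data known. No test between samples was possible with 1 library per viewpoint. Expected reads for the division by fragment class were means over flank ends from 10 to 200 kb in 5 length classes, with and without a site.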

Additional observations from a re-analysis of the deposited data

Results flagged for a closer look

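Reads also lay on flank ends whose sequence occurs more than once in the genome, which the values above leave out. Of 57 such ends with 2 to 50 copies, 56 had a read (98.2%, exact 95% interval 90.6 to 99.96%). They had 460 ± 535 reads per end (SD, median 221), and on the lower side of Jun, 53.5% of 86 such ends from 5 to 200 kb had one. A read on such an end may come from any of its copies. A further 155 of the flank's 978 ends had no value in the file and were not analysed here.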

How the results depend on the processing

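No alternative that was run reversed the ratio over the downstream side or the sign of the exponent. The other results have no direction that could be reversed. Which window was highest, and how many reached 2 times their neighbourhood, changed with the setting. With blind fragments left out, 99.4% of ends had a read, at 842 reads per end; the ratio over the downstream side was 5.49, the exponent -0.13, the highest window 1.87 times the median window, and 0 windows reached 2 times their neighbourhood. On blind fragments alone these were 95.2%, 188, 6.31 and, for the highest window, 3.11. With 3′ ends only, reads per end were 486, the ratio 5.09, the exponent -0.20, the highest window 2.50 and 2 windows reached 2 times their neighbourhood; with 5′ ends only, the first 4 were 490, 4.92, -0.14 and 2.29. With ends of every multiplicity they were 486, 5.21, -0.18 and 2.31, and with reads capped at the 95th percentile of covered ends 460, 4.72, -0.16 and 1.99. With ends with a read counted in place of reads, the level was 0.971 per end, the ratio 1.77, the exponent -0.011 and the highest window, now that at 20 to 30 kb, 1.02, with 10 windows at 2 times their mirror and 0 at 2 times their neighbourhood: nearly every end of the flank had a read, so this measure is close to its ceiling. Reads over those expected from fragment class and length gave 5.86, -0.18, 1.88 and 0 windows at 2 times their neighbourhood. With 10 kb left out at the viewpoint, the level was 462 and the ratio 5.63. A minimum of 10 reads left 91.3% of ends. In 5 kb windows the exponent was -0.26 from 5 kb outward, the highest window, at 5 to 10 kb, stood at 2.95, and of 39 windows 36 reached 2 times their mirror and 3 their neighbourhood. The 36 include the window at 135 to 140 kb, which was counted without a comparison because its mirror held no unique end. At 1.5 times, 3 windows of 10 kb passed their neighbourhood. Moved by 5 kb, the highest window was that at 5 to 15 kb, at 1.89, and from 15 kb outward that at 105 to 115 kb, at 1.53. Median reads per end gave 3.79, the highest window without its 3 strongest ends 1.99, and the exponent without the window at 100 to 110 kb was -0.19. The cause of these shifts was not tested. The settings for blind fragments only, medians, the 3 strongest ends, expected reads, windows moved from 15 kb outward and the exponent without 1 window were chosen after seeing the data. No paired analysis was possible because each viewpoint had 1 library. Several reads may be PCR copies of the same molecule, so the number of molecules behind an end or a window is not known.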
